A study of Danio rerio with 16 samples.

Results

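The genes described here are the receptors, partners and repressors of the aryl hydrocarbon receptor (AHR) pathway, taken by name: ahr2, ahr1a and ahr1b (the receptors), arnt and arnt2 (the partners), ahrra and ahrrb (the AHR repressors) and tiparp. These are 8 of the 32520 genes in the count table, and all 8 passed the filter on low counts. Of these, ahr1a and ahrrb passed only through TCDD libraries, with 0 of 7 DMSO libraries at the filter's cutoff, so their TCDD calls are not independent of the filter. They were followed by RNA sequencing in whole zebrafish embryos at 48 hours post fertilization (hpf). Each library came from a pool of 9 embryos raised in its own dish. The 2 lines were the wild type Tropical 5D and one mutant in wfikkn1, and the 2 exposures were to TCDD (2,3,7,8-tetrachlorodibenzo-p-dioxin) at 1 ng/mL or to DMSO at 0.1%, the vehicle. Both exposures lasted 1 h and began at 4 hpf. The 4 groups are therefore wild-type DMSO (n = 3), wild-type TCDD (n = 3), mutant DMSO (n = 4) and mutant TCDD (n = 4). For wild type, replicate 2 of each exposure is not analysed here. The labels do not give the mutant allele, how the mutant line was made or its background, so the mutation and the line cannot be told apart.

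AHR is a transcription factor of the basic helix-loop-helix PAS (bHLH-PAS) family that waits in the cytoplasm bound to HSP90 and other chaperones until a ligand such as TCDD binds it. It then enters the nucleus, pairs with ARNT and activates genes that carry dioxin response elements, the CYP1 cytochrome P450 genes among them. AHRR proteins compete with AHR for ARNT and DNA and repress the response, and TIPARP, a mono-ADP-ribosyltransferase, also dampens it, so that AHRR and TIPARP are both targets and brakes of the pathway. In zebrafish, ahr2 is known as the receptor through which TCDD exerts most of its developmental toxicity.

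Libraries held 20597475 to 26884477 counts and detected 23301 to 24108 genes. "Called" means an adjusted p under 0.05 in the quasi-likelihood test of edgeR, with the adjustment made over all 20098 tested genes. Levels are read counts scaled to library size (CPM), given as mean ± SD, and differences are log2 fold changes ± SE. CPM is not divided by gene length, so levels are compared between groups for 1 gene, not between genes. A count of 3 in a library corresponds to 0.11 to 0.145 CPM. Markers of 11 cell types of the embryo matched 28 rows of the count table, myh6 (heart) more than 1 of them. Of these rows, 26 had a read in every library, and alas2 (erythroid) and krt5 (skin) were at 0 in some. The lowest levels of mylpfa (fast muscle, 0.0397 CPM) and of 1 myh6 row (0.0902 CPM) lay below that of 3 counts. With DMSO, RNA of wfikkn1 was at 0.61 ± 0.214 CPM in wild type against 0.076 ± 0.0908 CPM in mutants, and at 17.2 ± 7.21 CPM against 0.758 ± 0.192 CPM under TCDD. In whole embryos, fewer cells of a type and less RNA per cell cannot be told apart.

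TCDD raised both repressors, tiparp and the receptor ahr2 in both lines. In wild type, 4 of the 8 genes were called higher: ahr2, ahrra, tiparp and ahrrb, the last through the filter only by its TCDD libraries. There 0 were called lower (0 also at an unadjusted p under 0.05, and 0 with DESeq2 and limma-voom). Of all tested genes, 8.84% were called higher and 5.75% lower in wild type. In that comparison 1777 genes were called higher and 1156 lower. The split over all genes moved to 1539 and 1472 with RLE scaling, 1489 and 1683 with a filter at 1 CPM and 1776 and 1798 with DESeq2, and limma-voom gave 1883 and 1187. In mutants, the same 4 genes and ahr1a were called higher (5 of 8, ahr1a and ahrrb through the filter only by their TCDD libraries) and ahr1b and arnt2 lower (2 of 8), where 17.5% of all tested genes were called higher and 18.6% lower. The median log2 fold change of the 8 genes was 1.1 in wild type and 1.16 in mutants, beside 0.03 and 0.0045 over all tested genes. Both medians include ahr1a and ahrrb, which passed the filter only through TCDD libraries, so they are not independent of the filter. The changes of ahr1a and ahrrb were 1.92 and 5.55 in wild type and 1.89 and 2.93 in mutants. The partner arnt was called in neither line.

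**Figure D1:**
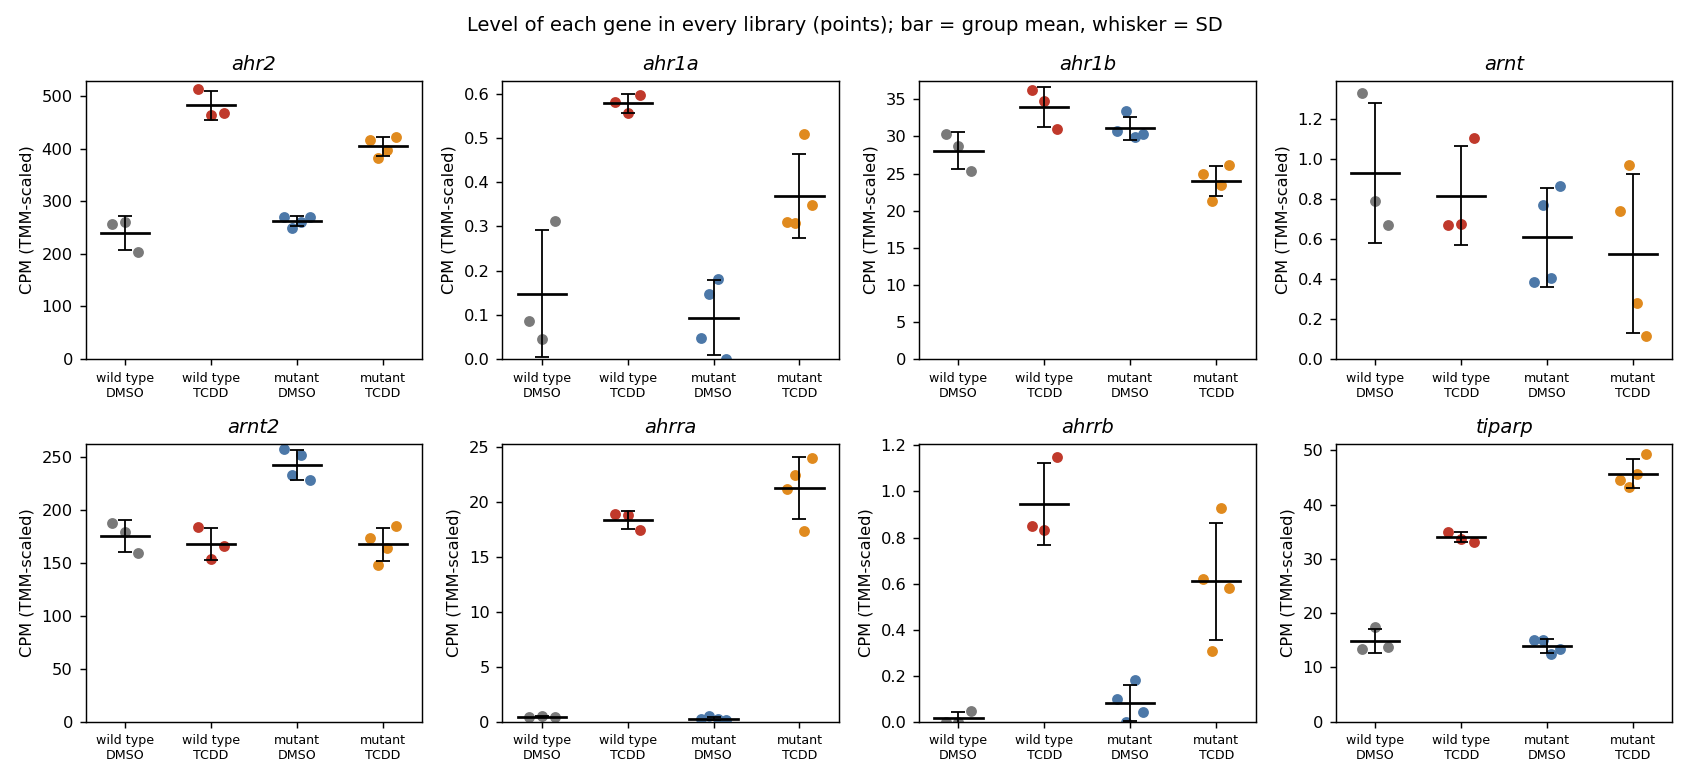
Level of each of the 8 genes in CPM (vertical axes, each starting at 0) in the 14 libraries, by group; points are libraries, bars group means and whiskers SD. The 7 TCDD libraries lie above the 7 DMSO libraries for ahr2, ahrra, ahrrb and tiparp, and mutant DMSO stands above the other groups for arnt2.

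Of the receptors, ahr2 (ENSDARG00000021833) stood at 257, 261 and 203 CPM in the 3 DMSO libraries of wild type, whose TCDD libraries reached 513, 465 and 469 CPM. In mutants, the 4 DMSO libraries were at 269, 249, 261 and 271 CPM and the 4 TCDD libraries at 416, 382, 398 and 422 CPM. The TCDD libraries of each line lay above all DMSO libraries, and the mutant TCDD libraries lay below all wild-type TCDD libraries. TCDD raised ahr2 by 1.00 ± 0.09 in wild type (2.01-fold, edgeR adjusted p = 3.47e-06) and by 0.62 ± 0.08 in mutants (1.54-fold, edgeR adjusted p = 3.26e-05). Group means stood in the order wild-type TCDD (482 ± 26.9 CPM), mutant TCDD (405 ± 18.5 CPM), mutant DMSO (263 ± 9.88 CPM) and wild-type DMSO (241 ± 32.3 CPM). The last pair overlapped, with a difference of 0.13 ± 0.08 (95% interval -0.05 to 0.30, edgeR adjusted p = 0.319).

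Between the lines under TCDD, the log2 difference of ahr2 (mutant minus wild type) was -0.25 ± 0.08 (edgeR adjusted p = 0.0298). The TCDD effects differed by -0.38 ± 0.12, mutant minus wild type (edgeR adjusted p = 0.0428). Both calls sat close to the threshold. With DESeq2, RLE scaling, no filter or a filter at 1 CPM, neither was called (adjusted p of 0.0548 to 0.0834 under TCDD and 0.0576 to 0.101 for the difference of effects). The call under TCDD was lost on leaving out wild-type TCDD replicate 1 (adjusted p = 0.134), mutant DMSO replicate 1 (0.0911), mutant TCDD replicate 2 (0.0821) or mutant TCDD replicate 3 (0.059). The difference of effects stayed called in 4 of the 14 fits that left out 1 library, those without wild-type DMSO replicate 1 or 3, wild-type TCDD replicate 3 or mutant DMSO replicate 2, and its adjusted p was 0.0508 to 0.134 in the other fits.

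Against ahr2, the paralog ahr1b (ENSDARG00000023537) moved in another way in mutants. The annotation of assembly GRCz12tu, which is not that of the counts, places ahr1b and ahr2 next to each other with 0 genes between them. Its wild-type levels were 30.3, 28.7 and 25.3 CPM in DMSO and 36.3, 34.7 and 31.0 CPM in TCDD, with no overlap. In mutants, DMSO libraries were at 30.7, 33.4, 29.9 and 30.3 CPM and TCDD libraries at 25.0, 21.3, 23.5 and 26.1 CPM, again with no overlap but in the opposite order. The wild-type difference of 0.28 ± 0.11 was not called (edgeR adjusted p = 0.0901), and in mutants ahr1b fell by 0.37 on the log2 scale (SE 0.09, edgeR adjusted p = 0.0044). In DMSO the lines overlapped (0.15 ± 0.10, edgeR adjusted p = 0.335), and under TCDD mutants were lower by a log2 difference of -0.50 ± 0.10 (edgeR adjusted p = 0.00107). The difference of the TCDD effects was -0.65 ± 0.14 (edgeR adjusted p = 0.00411), and it was called in all 14 fits that left out 1 library. With a term for an axis of expression within groups, described further on, the difference of effects was -0.46 (edgeR adjusted p = 0.662). The mutant change was then -0.27 (edgeR adjusted p = 0.191) and the difference under TCDD -0.38 (edgeR adjusted p = 0.122), none of them called. The score of that axis also differed between groups. The markers of vessels (cdh5 and kdrl) had sums between 207 and 236 CPM (wild-type DMSO), 228 and 262 (wild-type TCDD), 239 and 243 (mutant DMSO) and 190 and 204 (mutant TCDD). These sums overlapped between the wild-type exposures. They lay apart between the lines in DMSO, with mutants higher, and under TCDD, with mutants lower. From DMSO to TCDD in mutants, vessel and neuron sums were lower and those of 7 of the 11 cell types higher. The part of cell types in the ahr1b result was not tested.

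The third receptor, ahr1a (ENSDARG00000020046), was close to the detection floor. In wild type, 2, 1 and 7 reads were counted with DMSO and 13, 14 and 13 with TCDD. The mutant counts were 1, 4, 4 and 0 in DMSO and 8, 7, 11 and 9 in TCDD. In each line every TCDD library had more reads than every DMSO library. Summed over libraries and scaled by depth, the ratio of TCDD to DMSO was 3.89 (95% interval 1.91 to 8.72) in wild type and 3.83 (1.81 to 9.07) in mutants, intervals that cover counting error only. The fitted log2 change was 1.92 ± 0.65 in wild type, which was not called (edgeR adjusted p = 0.0559), and 1.89 ± 0.63 in mutants, which was called (edgeR adjusted p = 0.026). The mutant call was lost without mutant DMSO replicate 1 (adjusted p = 0.0673), mutant DMSO replicate 4 (0.0626) or mutant TCDD replicate 3 (0.0676), and the wild-type change was called without wild-type DMSO replicate 4 (2.98, adjusted p = 0.0261) or mutant DMSO replicate 4 (adjusted p = 0.0355). With limma-voom the wild-type change was called as well (2.14, adjusted p = 0.0347). The difference of the effects was not called (edgeR adjusted p = 0.997).

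Of the reads that fell on the 3 receptors together, a quantity chosen after the values were seen and not corrected for gene length, ahr2 took 89.4% ± 0.638 with DMSO and 93.3% ± 0.366 with TCDD in wild type. In mutants its share was 89.4% ± 0.834 in DMSO and 94.3% ± 0.221 in TCDD. The share of ahr1b went from 10.5% to 6.58% in wild type and from 10.6% to 5.58% in mutants. These shares are parts of a whole, so a rise of ahr2 lowers that of ahr1b. The level of ahr1b itself went from 28.1 to 34 CPM in wild type and from 31.1 to 24 CPM in mutants.

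**Figure D2:**
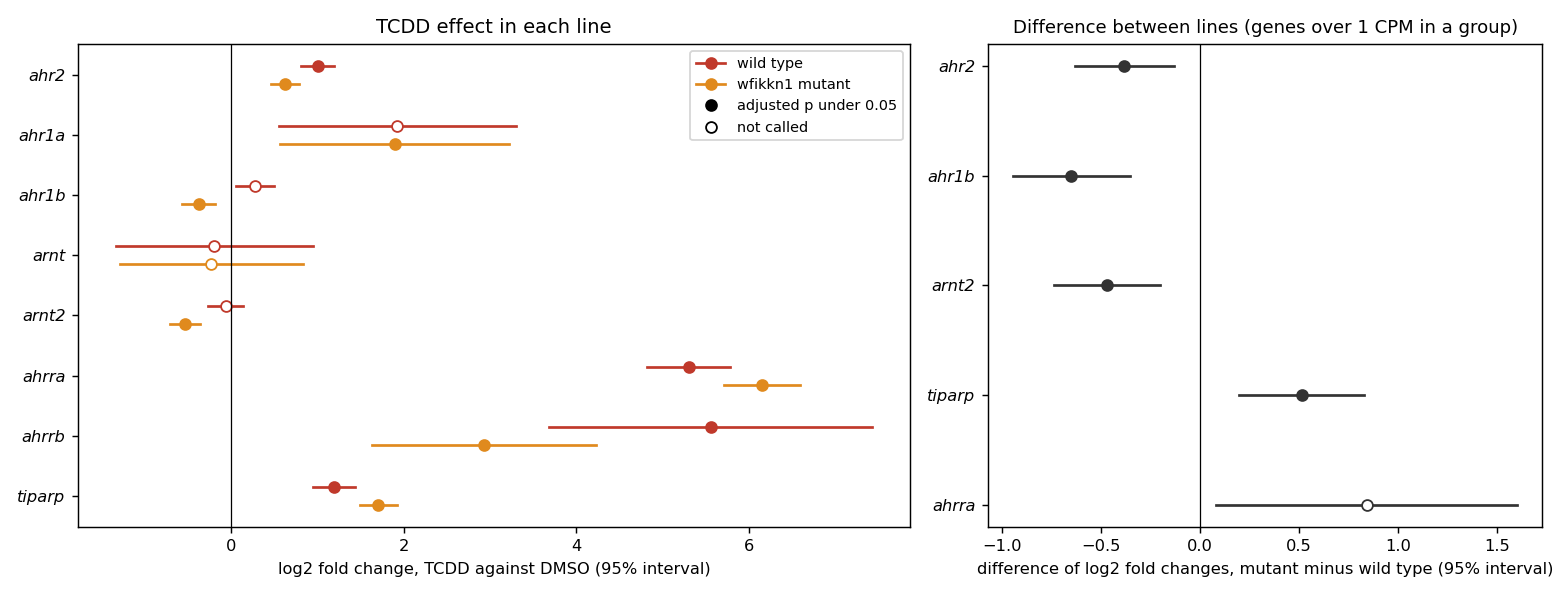
Left, log2 fold change of TCDD against DMSO (horizontal axis) with its 95% interval for each gene in wild type and in wfikkn1 mutants; filled points have an edgeR adjusted p under 0.05. Right, difference of the 2 effects, mutant minus wild type, for the 5 genes with a group mean over 1 CPM; it was called for ahr2, ahr1b, arnt2 and tiparp and not for ahrra.

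Of the partners, arnt2 (ENSDARG00000103697) differed between the lines in DMSO. There the wild-type libraries were at 188, 179 and 159 CPM and those of mutants at 257, 233, 252 and 228 CPM, with no overlap. The wild-type TCDD libraries were at 184, 154 and 166 CPM and the mutant TCDD libraries at 174, 148, 164 and 185 CPM. Mutant DMSO was thus the high group (243 ± 14.3 CPM), and the other groups overlapped each other, at 175 ± 15 CPM (wild-type DMSO), 168 ± 15.1 CPM (wild-type TCDD) and 168 ± 15.5 CPM (mutant TCDD). In DMSO arnt2 was higher in mutants by 0.47 ± 0.09 (1.38-fold, edgeR adjusted p = 0.00203). In mutants TCDD lowered it by a log2 change of -0.53 ± 0.08 (edgeR adjusted p = 0.000167), and in wild type the change was -0.06 (95% interval -0.26 to 0.14, edgeR adjusted p = 0.721). The difference of the TCDD effects, -0.47 ± 0.13 (edgeR adjusted p = 0.0198), was lost without wild-type DMSO replicate 4 (adjusted p = 0.0684), wild-type TCDD replicate 1 (0.0684) or mutant DMSO replicate 1 (0.0849). Under TCDD the lines were not told apart (95% interval of the log2 difference -0.19 to 0.19, edgeR adjusted p = 0.996). The markers of neurons (elavl3 and snap25a) summed to between 1900 and 2330 CPM (wild-type DMSO), 1970 and 2180 CPM (wild-type TCDD), 2120 and 2220 CPM (mutant DMSO) and 1790 and 1920 CPM (mutant TCDD). Between the lines in DMSO the neuron sums overlapped, but 6 of the 11 marker lists did not. Sums for heart, lens, erythroid cells, skin and cartilage were lower in mutants, as for skin at 1450 to 1520 against 3090 to 7340 CPM and erythroid cells at 44 to 70.2 against 84.9 to 130 CPM. The vessel sum was higher. For cartilage the sum was the level of matn1 alone, since the other listed markers were not matched by name. Among the erythroid markers hbbe1.1 was highest (38.2 to 202 CPM over all libraries), and among the skin markers krt4 (992 to 6770 CPM). From DMSO to TCDD in mutants, 9 of the 11 lists did not overlap, with neuron and vessel markers lower and 7 lists higher. Their part in the arnt2 results was not tested.

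Reads of arnt (ENSDARG00000021855), the other partner, were few. Wild type had 31, 17 and 15 with DMSO against 15, 17 and 24 with TCDD. Mutants had 8, 21, 9 and 21 with DMSO against 19, 22, 6 and 3 with TCDD. The groups overlapped in every comparison. TCDD changed arnt by -0.19 in wild type (95% interval -1.33 to 0.95, edgeR adjusted p = 0.86) and by -0.23 in mutants (-1.29 to 0.83, edgeR adjusted p = 0.763). A 2-fold fall lies within both intervals and a 2-fold rise outside them.

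The repressor ahrra (ENSDARG00000099702) was near the floor without TCDD. In wild type, 11, 11 and 9 reads were counted with DMSO against 422, 472 and 379 with TCDD. In mutants they were 6, 13, 5 and 4 in DMSO and 544, 509, 375 and 619 in TCDD. As levels, wild type went from 0.461 ± 0.0553 to 18.3 ± 0.795 CPM and mutants from 0.289 ± 0.135 to 21.2 ± 2.83 CPM. The rise was 5.30 ± 0.23 in wild type (39.4-fold, edgeR adjusted p = 1.38e-10) and 6.14 ± 0.21 in mutants (70.7-fold, edgeR adjusted p = 2.84e-12), and in both lines it ranked 4 among all tested genes by p. The lines overlapped in DMSO (edgeR adjusted p = 0.237) and under TCDD (edgeR adjusted p = 0.313). The TCDD effect differed between lines by 0.84 ± 0.36, which was not called (edgeR adjusted p = 0.15), and it was called without mutant DMSO replicate 2 (1.23, adjusted p = 0.0446), the mutant DMSO library with the most ahrra reads.

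The second repressor, ahrrb (ENSDARG00000052618), was nearly unread without TCDD. The wild-type libraries held 0, 0 and 1 reads with DMSO and 19, 21 and 25 with TCDD. In mutants they were 2, 0, 4 and 1 in DMSO and 16, 7, 20 and 15 in TCDD. The TCDD libraries exceeded all DMSO libraries in each line, and ahrrb, which passed the filter only through TCDD libraries, was called higher in both (edgeR adjusted p = 0.00157 in each). DESeq2 gave no adjusted p for it in wild type. From counts summed over libraries and scaled by depth, TCDD libraries held 63.2 times as many ahrrb reads in wild type (95% counting interval 10.9 to 2530) and 8.17 times as many in mutants (3.72 to 21.2). The difference between lines was not called (edgeR adjusted p = 0.226), and with 1 read over the 3 wild-type DMSO libraries its size is poorly fixed.

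The gene tiparp (ENSDARG00000061841) rose in both lines. Wild-type libraries stood at 13.3, 17.4 and 13.9 CPM with DMSO and at 35.0, 33.7 and 33.2 CPM with TCDD. In mutants they were 15.1, 15.0, 12.5 and 13.4 CPM in DMSO and 44.5, 43.3, 45.6 and 49.4 CPM in TCDD. All mutant TCDD libraries lay above all wild-type TCDD libraries, and the DMSO groups overlapped. TCDD raised tiparp by 1.19 ± 0.11 in wild type (2.28-fold, edgeR adjusted p = 9.38e-06) and by 1.71 ± 0.10 in mutants (3.26-fold, edgeR adjusted p = 6.86e-09). Under TCDD tiparp was higher in mutants by 0.43 ± 0.10 (edgeR adjusted p = 0.00529), and in DMSO the difference was -0.09 ± 0.11 (edgeR adjusted p = 0.638). The difference of the TCDD effects was 0.51 ± 0.15 (edgeR adjusted p = 0.0316). It stayed called in 7 of the 14 fits that left out 1 library, with adjusted p of 0.0204 to 0.0896 over them. The 7 that lost it left out wild-type DMSO replicate 3, wild-type TCDD replicate 3 or 4, mutant DMSO replicate 3 or 4, or mutant TCDD replicate 3 or 4. With the axis term it was 0.81 and not called (adjusted p = 0.359).

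Between the lines, arnt2 was the 1 gene of 8 called higher in mutants in DMSO and 0 were called lower (0 also at an unadjusted p under 0.05, and 0 with DESeq2 and limma-voom), where 8.21% of tested genes were called higher and 8.6% lower. Under TCDD, 1 was called higher (tiparp) and 2 lower (ahr2 and ahr1b), where 10.7% of tested genes were called higher and 16.9% lower. The test of the difference of the TCDD effects called tiparp higher in mutants (1 of 8) and ahr2, ahr1b and arnt2 lower (3 of 8), where 1.85% of tested genes were called higher and 10.2% lower. The difference of effects was called higher for 372 genes and lower for 2044, for 779 and 1870 with a filter at 1 CPM, and for 832 and 2098 with DESeq2. Under TCDD the lines differed at 2157 genes higher and 3395 lower, and at 2850 and 2868 with that filter. The median log2 difference of the 8 genes was 0.02 in DMSO, -0.38 under TCDD and -0.21 for the difference of effects, beside 0.0017, 0.0017 and 0.05 over all tested genes. These medians include arnt, low in counts, and ahr1a and ahrrb, which passed the filter only through TCDD libraries. Under TCDD the differences were -0.63 for arnt, -0.65 for ahr1a and -0.63 for ahrrb, none of them called. The difference of effects uses the same 14 libraries as the other comparisons.

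The libraries also varied along 1 axis of expression within groups, which was examined after the data were seen. Its weights came from values centred within groups, but the scores were taken on values centred over all libraries. The scores therefore also hold differences between groups. Wild-type scores were -0.987, 10.7 and -40.3 with DMSO and 28.1, 14.8 and 19.2 with TCDD. Mutant scores were 25.4, 13.6, -8.48 and 30.4 with DMSO and -26.9, -28.9, -11.1 and -25.5 with TCDD, so that mutant TCDD stood lower than mutant DMSO and wild-type TCDD without overlap. With the score as a term, ahr2, ahrra and tiparp kept their TCDD calls in both lines, and in wild type ahr1a was then called (3.27, edgeR adjusted p = 0.0357). In wild type ahrrb, like ahr1a through the filter only by TCDD libraries, stayed called (5.905, edgeR adjusted p = 0.00965). In DMSO arnt2 stayed called between lines (0.41, edgeR adjusted p = 0.015). In mutants, arnt2 stayed called (-0.45, edgeR adjusted p = 0.0195), and ahr1b (-0.27, adjusted p = 0.191), ahrrb (2.56, adjusted p = 0.126) and ahr1a (0.69, adjusted p = 0.642) did not. The difference under TCDD stayed called for tiparp (0.62, adjusted p = 0.017) and was lost for ahr2 (-0.04, adjusted p = 0.878) and ahr1b (-0.38, adjusted p = 0.122). For the difference of effects edgeR then called 0 of the 20098 genes, ahr2, ahr1b, arnt2 and tiparp included, and at an unadjusted p under 0.05 there were 498 higher and 1008 lower. Because the scores differ between groups along this same comparison, the term takes up part of it. Its SE went from 0.139 to 0.214 for ahr1b and from 0.150 to 0.224 for tiparp, whose difference itself went from 0.51 to 0.81. For the other genes the difference shrank, from -0.38 to -0.05 for ahr2, -0.65 to -0.46 for ahr1b and -0.47 to -0.32 for arnt2. Loss of these calls can therefore not tell variation within groups from a difference of the TCDD effects.

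Ratios within a library, in which its scaling cancels, set the repressors against the receptor. The log2 ratio of ahrra to ahr2 CPM went from -8.78 ± 0.07 to -4.71 ± 0.07 with TCDD in wild type, and from -9.52 ± 0.54 to -4.25 ± 0.19 in mutants (differences of 4.07 and 5.26). No TCDD library overlapped a DMSO library, and under TCDD the mutant libraries lay above those of wild type (difference 0.46, exact permutation p = 0.05714). The ratio of tiparp to ahr2 was, in wild type, -4.01 ± 0.22 with DMSO and -3.82 ± 0.04 with TCDD, which overlapped (difference 0.19, exact permutation p = 0.2). In mutants it went from -4.22 ± 0.15 to -3.15 ± 0.05 with no overlap (difference 1.08, exact permutation p = 0.02857), and under TCDD it was 0.68 higher in mutants than in wild type (exact permutation p = 0.02857). The ratio of arnt2 to arnt was 7.49 ± 0.37 with DMSO and 7.57 ± 0.41 with TCDD in wild type, and 8.52 ± 0.61 and 8.38 ± 1.2 in mutants. With DMSO the mutants lay above wild type without overlap (difference 1.04, exact permutation p = 0.05714), and the groups of the other comparisons overlapped. Over the 12 two-sided exact permutation tests of these ratios, the lowest adjusted p was 0.1143. The smallest p that 3 against 3 libraries allow is 0.1, and 0.02857 for the other comparisons.

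**Figure D3:**
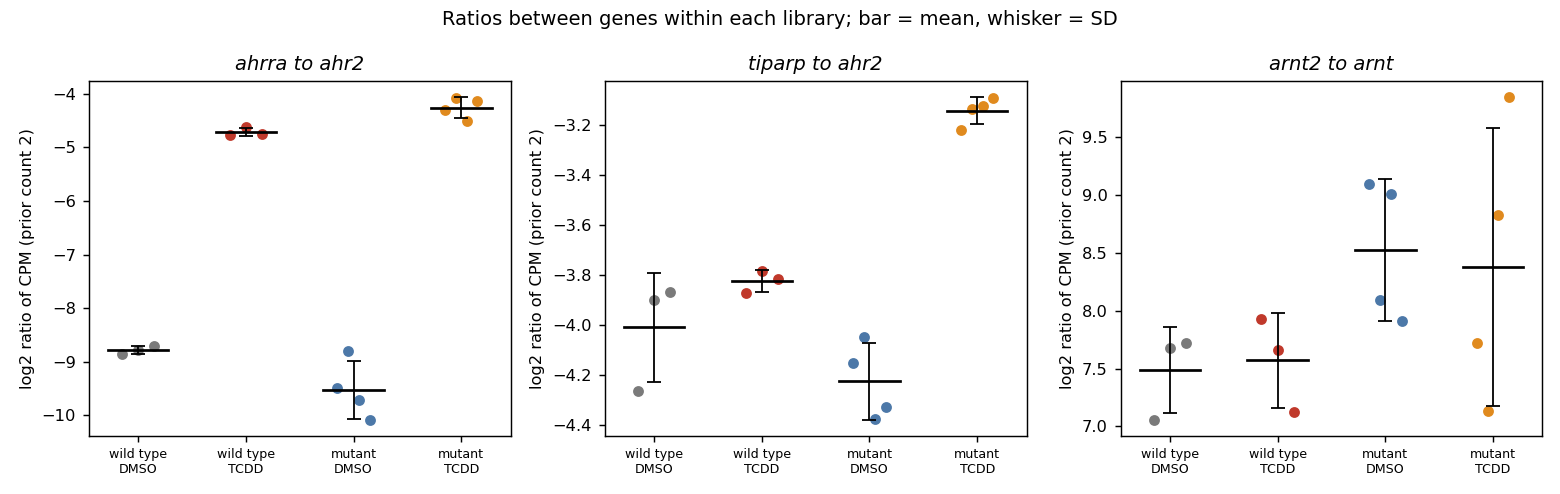
Log2 ratio of CPM between 2 genes of the same library (vertical axes, prior count 2) by group; points are libraries, bars means and whiskers SD. The ratio of ahrra to ahr2 is higher in every TCDD library than in any DMSO library, and the ratio of tiparp to ahr2 is highest in mutant TCDD.

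Genes whose levels followed each of the genes raised in both lines were ranked by the root mean square (RMS) difference of mean-centred log2 CPM over the 14 libraries, a description with no test, among 12996 named genes (12997 for ahrrb). Closest to ahr2 was tril, a gene for a leucine-rich repeat partner of Toll-like receptors (RMS 0.116), then slc6a4a, a serotonin transporter gene (0.141), and cdkn1ba, which encodes a cyclin-dependent kinase inhibitor (0.143). Around ahrra came the cytochrome P450 genes cyp1c1 (0.236), cyp1c2 (0.392) and cyp1a (1.19). The genes closest to ahrrb were ccn2b, for a connective tissue growth factor, at 0.571, pkhd1l1 at 0.658 and the sulfotransferase gene sult6b1 at 0.682. In DMSO libraries ahrrb held 0 to 1 reads in wild type and 0 to 4 in mutants. Its log2 CPM there was largely set by the prior count added before taking logs. It also passed the filter only through TCDD libraries. Whether its closest genes change with another prior count was not tested. The neighbours of tiparp were the glutathione S-transferase gene gstp1 (0.195), vegfd, for a vascular and lymphatic growth factor (0.244), and the glucuronosyltransferase gene ugt1b5 (0.245). The SD of log2 CPM over the libraries was 0.433 for ahr2, 2.9 for ahrra, 1.49 for ahrrb and 0.795 for tiparp. RMS values are therefore not compared between these genes.

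Other genes of the pathway were counted in 4 lists, to be read beside the shares of all tested genes (8.84% higher and 5.75% lower in wild type, 17.5% and 18.6% in mutants). Of the AHR battery list, 6 of 9 tested genes rose in wild type and 8 of 9 in mutants, and 0 fell with edgeR (0 also at an unadjusted p under 0.05). Among them cyp1a rose by 7.32 ± 0.13 and 8.21 ± 0.12, cyp1c1 by 5.29 ± 0.14 and 5.83 ± 0.13, and cyp1c2 by 5.64 ± 0.15 and 5.38 ± 0.13. The battery gene cyp1b1 was not tested, with 4 reads over wild-type TCDD, 3 over mutant TCDD and 0 in DMSO. The difference of effects was called for 2 of the 9, cyp1a (0.89 ± 0.14, edgeR adjusted p = 0.000372) and cyp1c1 (0.54 ± 0.16, edgeR adjusted p = 0.0396), with the larger fold in mutants. Of all tested genes, 1.85% were called higher and 10.2% lower for this difference. The other lists had such calls too: 3 higher and 1 lower of 19 chaperones and coregulators, 3 lower of 14 other bHLH-PAS genes and 1 higher of 12 PARP relatives. Under TCDD cyp1a was higher in mutants (4970 ± 288 against 3140 ± 47 CPM, edgeR adjusted p = 9.15e-05), and in DMSO it was not called (16.7 ± 2.38 against 19.6 ± 2.2 CPM, edgeR adjusted p = 0.14). For cyp1c1 the call between lines was in DMSO, where mutants were lower (11.7 ± 1.61 against 19 ± 1.22 CPM, edgeR adjusted p = 0.000949), and under TCDD it was not called (668 ± 84.6 against 747 ± 79 CPM, edgeR adjusted p = 0.29).

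Of 19 chaperones and coregulators of the AHR complex, 0 rose (2 at an unadjusted p under 0.05 in edgeR) and 1 fell in wild type, and 5 rose and 4 fell in mutants, the latter near the shares of all genes (17.5% and 18.6%). The HSP90 gene hsp90aa1.1 fell in wild type by 0.49 on the log2 scale (edgeR adjusted p = 0.0372), while the coactivator gene ncoa3 (0.25, edgeR adjusted p = 0.0519) and rb1 (-0.21, edgeR adjusted p = 0.114) were not called. In mutants hsp90aa1.2 rose by 0.79 ± 0.11 and aip, whose product holds AHR in the cytoplasm with HSP90, by 0.52 ± 0.10, and the coactivator gene ncoa1 fell by 1.16 on the log2 scale (edgeR adjusted p = 9.33e-05, 0.000774 and 0.000559). Of 14 other bHLH-PAS genes, 1 rose (the circadian clock gene clockb, 0.47 ± 0.13) and 1 fell (epas1a, for the hypoxia factor HIF-2 alpha, -0.45 ± 0.13) in wild type, and hif1al was at 0.24 (edgeR adjusted p = 0.0515). In mutants 3 of the 14 rose, hif1al (0.50 ± 0.07) and the clock gene arntl1a (0.57 ± 0.10) among them, and 4 fell, including sim1a (-0.63 ± 0.09), again beside 17.5% and 18.6% of all genes.

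Of 12 relatives of tiparp in the PARP family, 0 rose (0 also at an unadjusted p under 0.05 in edgeR) and 1 fell in wild type, and 1 rose and 2 fell in mutants, where 17.5% and 18.6% of all genes did. The gene parp6a fell in both lines (-0.93 ± 0.13 and -0.68 ± 0.11, edgeR adjusted p = 0.000438 and 0.000203). In mutants parp16 rose (0.64 ± 0.12) and parp8 fell (-0.29 ± 0.10), and in wild type parp4 (-0.31, edgeR adjusted p = 0.0736) and parp9 (-0.48, edgeR adjusted p = 0.149) were not called. The medians over the 4 lists were 1.77 and 1.56 for the battery (wild type, then mutants), -0.01 and 0.10 for chaperones and coregulators, 0.21 and 0 for bHLH-PAS genes and -0.13 and -0.13 for PARP genes.

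**Figure D4:**
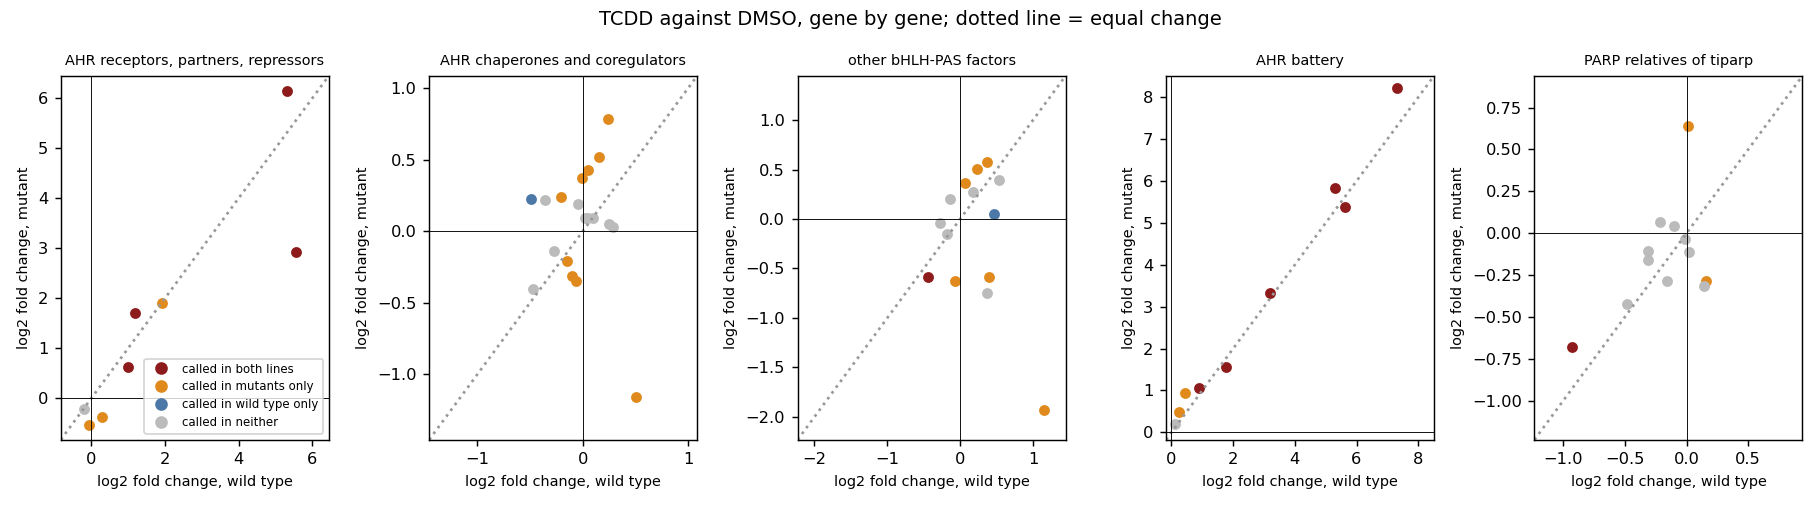
Log2 fold change of TCDD against DMSO in wild type (horizontal) and in mutants (vertical) for the 8 genes and the 4 lists, each point a gene, coloured by the lines in which it was called; the dotted line marks equal change. The axes differ between panels: the battery reaches 8.21, while the PARP relatives lie between -0.93 and 0.64.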

How the data were processed

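Per the labels' protocols, poly(A) RNA (integrity number over 8) went into a stranded library kit, and single-end reads of 100 bp were taken on 6 lanes. The values are raw read counts per gene made by the authors. Assembly GRCz11, edgeR, HTSeq 0.12.4, HISAT2 2.2.0 and cutadapt 1.8.1 are among the builds and tools in the submitters' processing notes, while the annotation release and strand setting are not given in the sources used here. A further 4 tables, 1 per comparison and deposited by the authors, give log2 fold changes and log2 mean CPM of genes past a threshold and, per the file headers, a p-value, an adjusted p-value and an F score from edgeR. They served for gene names (6 of the 8 genes, the other 2 from a gene name table) and for 1 comparison of calls: the authors' deposited tables list 14 results for these genes, all among the 15 called here. The 15 are of those 4 comparisons and leave out the difference of effects. Both sets come from edgeR on this series (ahr2 in wild type 1.004 and 1.0038), so the match is no independent check.

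The counts were analysed with edgeR 4.0.16 under R 4.3.3, using TMM scaling, filterByExpr, 1 mean per group over all 14 libraries, quasi-likelihood F tests and Benjamini-Hochberg adjustment over 20098 genes. The SE was taken as the log2 change divided by the root of F. Of 91 pairs of libraries 0 were identical. Ratios within libraries used log2 CPM with a prior count of 2 and exact permutation tests. Likeness was computed for genes whose log2 CPM averaged 1 or more. All 8 genes were named whatever their values; of each pathway list, the 3 genes of smallest adjusted p per line were named, and for the difference of effects the battery genes that were called, chosen after their values were seen. Of the listed pathway genes, 13 were not matched by name. The 8 genes, the lists and the tests were chosen with earlier results of these data known. The alternatives tried were DESeq2 1.42.0, limma-voom (limma 3.58.1), scaling by RLE, dropping the filter, keeping genes with 1 CPM in 4 libraries, fitting the groups compared alone, a replicate block, a 2-fold threshold, each library left out, a prior count of 0.5 for ratios and, added after seeing the data, the within-group axis score. That axis is the leading singular vector of log2 CPM centred within groups. Its score was taken on log2 CPM centred over all libraries, so it holds differences between groups as well. The fit was tested on simulated data. Dishes are the replicates, and intervals on summed counts cover counting error only. Sequences of the genes, their promoters and proteins were not analysed here.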

Additional observations from a re-analysis of the deposited data

Results flagged for a closer look

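The TCDD effect differed between the lines, by an interaction test in edgeR, for 4 of the 8 genes, where 1.85% of all tested genes were called higher and 10.2% lower. On the log2 scale, mutant minus wild type, the difference was -0.3807 for ahr2 (adjusted p = 0.0428), -0.6487 for ahr1b (adjusted p = 0.00411), -0.4689 for arnt2 (adjusted p = 0.0198) and 0.5141 for tiparp (adjusted p = 0.0316). On leaving out 1 library, ahr2 stayed called in 4 of 14 fits, tiparp in 7, arnt2 in 11 and ahr1b in 14. The ahr2 call was also lost with DESeq2 (adjusted p = 0.0576), RLE scaling (0.0712), no filter (0.101) and a filter at 1 CPM (0.0694). With the axis score as a term 0 of the 4 were called with edgeR (adjusted p = 0.359 to 0.969), but that score itself differed between groups. In the 16 groups of values with 4 libraries, 0 libraries stood apart from the others by Dixon's test.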

How the results depend on the processing

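The calls of ahr2, ahrra and tiparp for TCDD in each line kept their direction and threshold in all 14 fits that left out 1 library, as did ahr1b and arnt2 in mutants and ahrrb in both lines. For the difference under TCDD, 1 rather than 2 genes were called lower with RLE scaling, without a filter, with CPM of at least 1, with DESeq2 and with the replicate block, and 0 with the axis score. In mutants, 3 rather than 5 genes were called higher with CPM of at least 1, with only the groups compared and with the axis score, because ahr1a and ahrrb then failed the filter or, with the score, the test; 1 rather than 2 was called lower with the axis score. At a 2-fold threshold, ahr2 was no longer called for TCDD in mutants (0.6231). With that threshold 0 were called lower in mutants, and 0 in either direction between lines in DMSO, under TCDD and for the difference of effects. For that difference, 0 were called higher with the replicate block (tiparp 0.51, adjusted p = 0.064), and 0 in either direction with the axis score. Leaving out 1 library gave 0 to 2 called higher and 1 to 3 called lower for the difference of effects, and 1 to 2 called lower under TCDD. The cause was not tested.

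Values that changed sign were all uncalled. For arnt2 between lines under TCDD they were 0.02684 with RLE, 0.03779 with no filter, 0.04509 with CPM of at least 1, 0.0269 with DESeq2, 0.0005185 with limma-voom, 0.03827 with the replicate block, 0.09816 with the axis score and -0.0632 to 0.0721 on leaving out 1 library. The difference of effects for ahr1a was 0.01504 with no filter, 0.01774 with DESeq2, 0.03101 with limma-voom and -1.11 to 0.41 on leaving out 1 library; for arnt it was 0.01431 with no filter, 1.959e-05 with DESeq2, 0.40 with the axis score and -0.50 to 0.30. In DMSO ahr1a was at 0.41 between lines with the axis score and -1.05 to 0.47 on leaving out 1 library, and tiparp at -0.146 to 0.0561. The TCDD effect on arnt was -0.47 to 0.14 in wild type and, in mutants, 0.02619 with the axis score and -0.688 to 0.110. The log2 ratio of arnt2 to arnt changed by -0.128 to 0.310 in wild type and -0.631 to 0.271 in mutants.

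Same-numbered libraries did not pair: 5 of 19 pairs had a correlation of deviations over 0.1 (-0.357 to 0.326), and 4 of 14 libraries correlated best with their own number. The replicate block changed 2 calls, ahr2 under TCDD (adjusted p = 0.0682) and the difference for tiparp. Over all genes, the difference of effects was called higher for 571 genes with no filter, 779 with CPM of at least 1 and 832 with DESeq2, against 372. TCDD lowered 1798 genes in wild type with DESeq2 against 1156; with only the groups compared, wild type gave 773 higher and 397 lower and the lines in DMSO 1003 higher. At 2-fold the counts higher and lower were 730 and 66 in wild type, 354 and 904 in mutants, 610 and 584 between lines in DMSO, 378 and 1646 under TCDD, and 46 higher for the difference. With the axis score they were 683 and 464, 963 and 1260, 793 and 1003, 497 and 861, and 0 and 0. The planned motif alternative was not run, since no promoter sequence was used here. Low counts limit ahr1a, arnt and ahrrb.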
